A study of Mus musculus with 20 samples.

Results

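The p53 targets and cell death genes examined here were Trp53, Mdm2, Ccng1, Cdkn1a, Gadd45a, Gadd45b, Bbc3, Bax and Bcl2, chosen by name. All 9 were found among the 32285 genes of the table, and all 9 were among the 17948 genes that passed the filter on low values (at least 1 in at least 4 libraries). RNA was sequenced from the gastrocnemius (GAS) muscle of 12-week-old male C57BL/6 WT mice and homozygous Opg-/- mice (Tnfrsf11b knockout) on day 7 after surgery. The den groups came from the right hind limb, in which the sciatic nerve had been transected over 10 mm, and the sham groups from the left, in which the nerve was only laid open, with 5 libraries in each of the 4 groups. Both limbs of a mouse were operated, so the sham muscle came from an animal that also carried a denervated limb, and the labels do not say which den and sham libraries share a mouse.

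Values are normalized expected counts, that is, estimated reads per gene divided by 1 size factor per library. The libraries held 15186247 to 20102295 reads. The libraries 1 and 2 of WT sham were nearly the same: they differed by less than sampling noise, with a chi-square of 0.324 per degree of freedom where the 39 other within-group pairs had 6.78 to 25.7. They were averaged and counted as 1 sample. Values after ± are SDs over n = 4 in WT sham and n = 5 in each other group. Tnfrsf11b, the targeted gene, was close to the detection limit in all groups, with 2.75 ± 1.90 in WT sham and 8.78 ± 1.99 in the sham libraries labelled Opg-/-, so it did not verify the genotype labels, and Opg-/- below means the libraries labelled so. All 6 denervation check genes (such as the acetylcholine receptor subunit Chrna1 and Myog) rose in both genotypes at an adjusted p under 0.05 in limma. Of all genes, 26.9% rose in WT and 28.6% in Opg-/- mice by this measure. The muscle fibre markers summed to 2597547 to 3416419 in WT sham and 982274 to 1343094 in WT den, and the smooth muscle markers to 8402 to 8825 and 2774 to 4008. Of the 10 muscle fibre markers, 2 rose and 6 fell in WT, and 1 rose and 8 fell in Opg-/- mice. All 6 smooth muscle markers fell in both genotypes. The macrophage markers summed to 2088 to 3176 in WT sham and 2632 to 5992 in WT den, and 6 of 12 of them rose in WT and 12 of 12 in Opg-/- mice. In Opg-/- sham they summed to 1216 to 2176 and in Opg-/- den to 2634 to 6264. Between the genotypes, 0 of the 12 were called in sham, in den or for the interaction. All 8 endothelial markers fell in both genotypes, where 25.7% (WT) and 26.4% (Opg-/-) of all genes fell. Their sum was 7105 to 7999 in WT sham against 3299 to 3959 in WT den. Neutrophil markers summed to 17.4 to 137 and 195 to 310 in these groups, and satellite cell markers to 1065 to 1294 and 1566 to 2410. Of 5 neutrophil markers tested, 1 rose in each genotype, with median log2 fold changes of 0.0824 (WT) and 0.56 (Opg-/-). Of 6 satellite cell markers, 1 rose and 1 fell in WT, and 1 rose and 3 fell in Opg-/- mice. Their median log2 fold changes were -0.275 (WT) and -0.432 (Opg-/-). The rise of these sums was thus not called in most genes of either list. In whole muscle, fewer cells of a type and less RNA per cell cannot be told apart, and the part that these shifts had in the results below was not tested.

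The p53 protein, encoded by Trp53, is a transcription factor whose amount and activity are set mainly after translation. MDM2 is both its product and the ubiquitin ligase that removes it, which closes a feedback loop. Other p53 targets stop the cell cycle (p21, encoded by Cdkn1a), respond to stress (GADD45A, cyclin G1) or open the mitochondrial route of apoptosis. In this route PUMA (Bbc3) neutralizes BCL2 and its relatives, and BAX forms pores in the outer mitochondrial membrane. In skeletal muscle, several of these genes are also driven without p53. Gadd45a and Cdkn1a are known to be induced when a muscle loses its nerve.

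Denervation moved most of the 9 genes in the same direction in both genotypes. In WT mice, 6 of the 9 rose and 3 fell at an adjusted p under 0.05, so that 9 of 9 were called, while 52.5% of all genes tested were called (26.9% higher and 25.7% lower). In Opg-/- mice, 6 rose and 2 fell, so that 8 of 9 were called, against 54.9% of all genes (28.6% higher and 26.4% lower). Of the 9 genes, 6 also passed an absolute log2 fold change of 1 in each genotype, against 19.8% of all genes in WT and 21.6% in Opg-/- mice. The values of 8 of the 9 genes did not overlap between sham and den in either genotype, against 44.3% of all genes in WT and 40.8% in Opg-/- mice. For the 9 genes the median log2 fold change was 1.15 in both genotypes, and for all genes it was -0.0022 (WT) and 0.0215 (Opg-/-). These tests were made with limma on log2(value + 1) with Benjamini-Hochberg adjustment over all genes, and fold changes on this scale understate the change of genes with low values. The 9 genes were chosen with earlier results of these data known, so their counts beside the shares of all genes are a description.

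**Figure D1:**
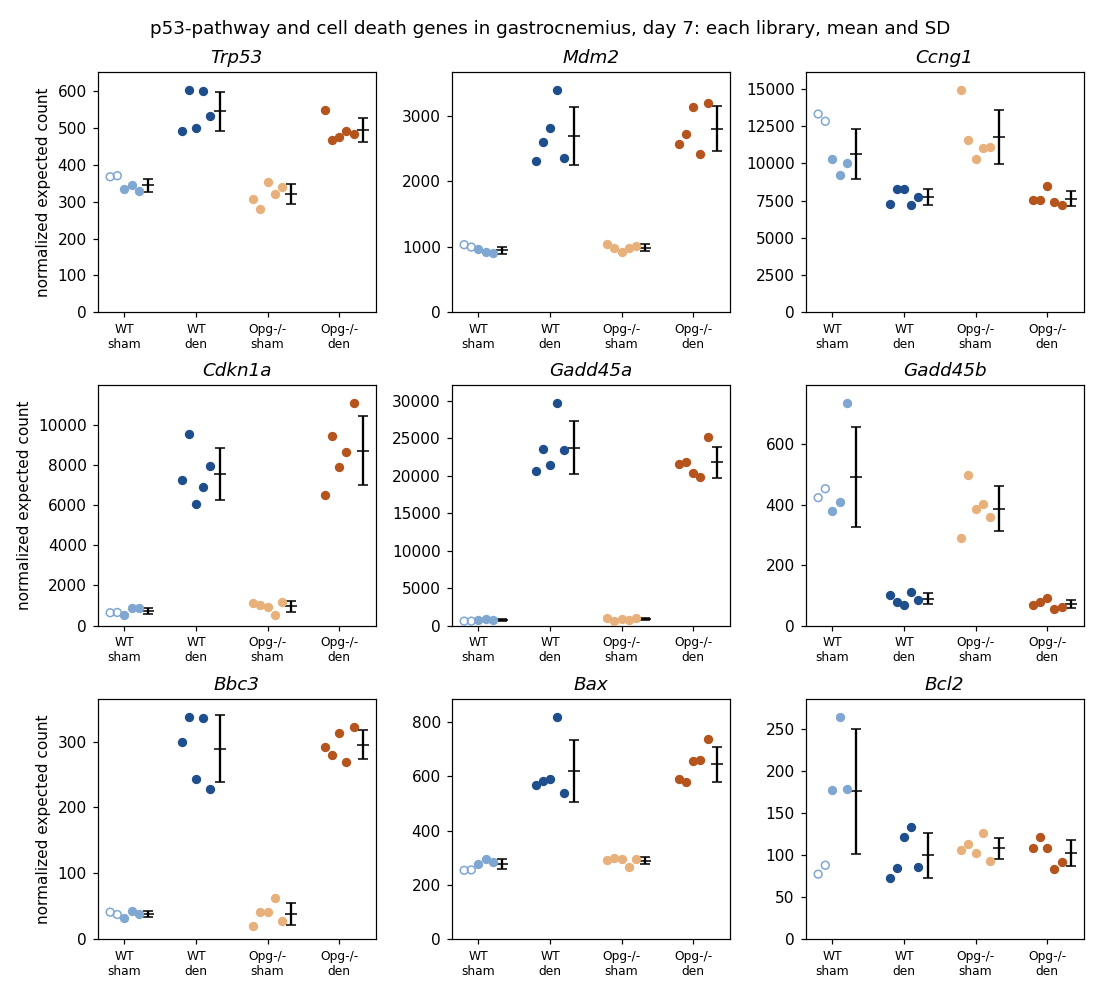
Normalized expected counts (y axis, starting at 0) of the 9 genes in each library of the 4 groups (x axis), with the mean and SD beside the points. The open circles are the near-identical libraries WT sham 1 and 2, which were averaged for the mean and SD; Gadd45a lies between 588 and 1003 in the sham libraries and between 19818 and 29664 in the den libraries.

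The p53 gene itself rose modestly. Trp53 (ENSMUSG00000059552, plus strand of chromosome 11, 69580359 to 69591873 in mm10) ranged from 329 to 369 in WT sham and from 491 to 605 in WT den. The Opg-/- libraries ranged from 281 to 353 in sham and from 468 to 550 in den. No den library of either genotype was as low as any sham library. The log2 fold change was 0.66 (SE 0.0851, adjusted p = 1.46e-07) in WT and 0.62 (SE 0.0803, adjusted p = 1.10e-07) in Opg-/- mice, which makes it the smallest rise among the genes that rose.

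Mdm2 (ENSMUSG00000020184, minus strand of chromosome 10, 117688875 to 117710758), whose product degrades p53, rose further than Trp53 did. Its WT sham libraries lay between 896 and 1013 and its WT den libraries between 2308 and 3404. The corresponding Opg-/- ranges were 914 to 1045 and 2419 to 3201. Among the sham libraries the coefficient of variation was 5.58% in WT and 4.93% in Opg-/- mice, the tightest of the 9 genes in Opg-/- sham after Bax. The mean was 2.85 times the sham mean in both genotypes, with log2 fold changes of 1.49 (SE 0.0940, adjusted p = 6.96e-14) and 1.50 (SE 0.0886, adjusted p = 1.33e-14).

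Cdkn1a and Ccng1, both known targets of p53, moved in opposite directions. Cdkn1a (ENSMUSG00000023067, plus strand of chromosome 17, 29090976 to 29100727) encodes p21, which inhibits cyclin-dependent kinases. Its values were 637 and 651 in the near-identical pair, 542, 852 and 874 in the other WT sham libraries, and 7222, 9514, 6067, 6904 and 7926 in WT den. The Opg-/- values were 1112, 1029, 926, 517 and 1173 in sham and 6493, 9428, 7879, 8637 and 11067 in den. The lowest den library, at 6067, stood far above the highest sham library, at 1173. The mean rose from 728 ± 162 to 7527 ± 1296 in WT, and from 951 ± 260 to 8701 ± 1709 in Opg-/- mice. The log2 fold changes were 3.38 (SE 0.230, adjusted p = 1.84e-09) and 3.23 (SE 0.217, adjusted p = 1.36e-09).

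Ccng1 (ENSMUSG00000020326, minus strand of chromosome 11, 40748552 to 40755311) encodes cyclin G1, which recruits a phosphatase to MDM2. In the sham muscle it had the highest level per kilobase of exon of the 9 genes, with a mean of 3027 per kb in WT and 3359 per kb in Opg-/- mice. Its values were 13318 and 12828 in the near-identical pair, 10263, 9200 and 9993 in the other WT sham libraries, and 7235, 8296, 8294, 7215 and 7716 in WT den. Opg-/- libraries gave 14953, 11551, 10302, 11052 and 11122 in sham and 7503, 7566, 8473, 7389 and 7220 in den. All den libraries were below all sham libraries, by a small margin in WT. The log2 fold change was -0.45 (SE 0.0957, adjusted p = 0.000241) in WT and -0.62 (SE 0.0902, adjusted p = 1.00e-06) in Opg-/- mice. With equal library totals in place of the authors' scaling, the median of all genes shifted to 0.267 in WT and 0.416 in Opg-/- mice, and the log2 fold change of Ccng1 was -0.14 (adjusted p = 0.117) in WT and -0.17 (adjusted p = 0.0456) in Opg-/- mice. The fall of Ccng1 in WT therefore depended on the scaling, although its log2 fold change was below the median of all genes on both scales.

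The stretches before the transcription start of Cdkn1a and Ccng1 are shown because, of the 9 genes, only these held a match to the full p53 response element, and their RNA moved in opposite directions. The element was searched as a pair of adjoining decamers on both strands. Only the C and the G of each decamer's core were required. At most 2 mismatches were allowed at the other letters, those between this C and G included. The element was found in 0.326% of the 32851 windows of the same 300 bases around all RefSeq starts. Capitals mark matches to this element or its single decamer and, on either strand, to the CCAAT box (CCAAT), the octamer of POU factors (ATGCAAAT), the E-box of myogenic factors (CAGCTG), the E-box of MYC and related factors (CACGTG) and the core of the TATA box (TATAA). The Cdkn1a stretch (GRCm38.p6, plus strand, chr17:29090729-29090978) precedes the upstream of 2 RefSeq starts, and the Ccng1 stretch lies on the minus strand at chr11:40755287-40755536.
Cdkn1a: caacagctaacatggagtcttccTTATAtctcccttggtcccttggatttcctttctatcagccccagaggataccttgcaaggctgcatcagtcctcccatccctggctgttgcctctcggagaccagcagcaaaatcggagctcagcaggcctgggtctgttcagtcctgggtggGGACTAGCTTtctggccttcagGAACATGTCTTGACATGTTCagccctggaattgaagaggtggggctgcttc
Ccng1: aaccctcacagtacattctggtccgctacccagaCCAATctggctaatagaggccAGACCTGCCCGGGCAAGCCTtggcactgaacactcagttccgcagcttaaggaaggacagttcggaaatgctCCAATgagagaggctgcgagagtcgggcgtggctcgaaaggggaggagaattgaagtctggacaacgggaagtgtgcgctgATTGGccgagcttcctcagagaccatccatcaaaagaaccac
In Cdkn1a the element, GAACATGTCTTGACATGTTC, lay from -51 to -32 relative to the start, with 1 mismatch, and a further decamer match lay from -73 to -64. In Ccng1 the element, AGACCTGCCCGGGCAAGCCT, lay from -195 to -176 with 1 mismatch, and CCAAT matches stood at -216, -123 and -42. The mismatch in Ccng1 lay inside the core of a decamer, between its C and G. The single decamer was found in 6 of the 12 windows of the 9 genes, 1 window in each of 6 genes, and in 8.36% of all windows. A match in these letters is a description and not evidence of a bound site, and a count per gene does not show which start was used. Only 250 bases before and 50 after each start were searched, so a gene without a match may hold the element elsewhere.

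The GADD45 genes encode small stress proteins that bind p21, PCNA and MAP3K4, and the members of this family moved apart. Gadd45a (ENSMUSG00000036390, minus strand of chromosome 6, 67035096 to 67037457) rose the most of the 9 genes. Its values were 588 and 590 in the near-identical pair, 744, 895 and 717 in the other WT sham libraries, and 20606, 23501, 21378, 29664 and 23392 in WT den. The Opg-/- values were 1003, 647, 899, 684 and 973 in sham and 21527, 21869, 20370, 19818 and 25200 in den. The sham and den libraries were far apart, with means of 737 ± 126 and 23708 ± 3559 in WT and of 841 ± 165 and 21757 ± 2098 in Opg-/- mice. The mean was 32.2 times the sham mean in WT and 25.9 times in Opg-/- mice, with log2 fold changes of 5.01 (SE 0.139, adjusted p = 6.68e-17) and 4.71 (SE 0.131, adjusted p = 5.15e-17). In den it had the highest level per kilobase of the 9 genes, with a mean of 13440 per kb in WT den. Library preparation did not keep strand, and 337 exon bases are shared with the opposite-strand gene E230016M11Rik, whose own highest value was 69.9.

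Gadd45b (ENSMUSG00000015312, plus strand of chromosome 10, 80930073 to 80932204) fell. Its values were 423 and 453 in the near-identical pair, 379, 409 and 735 in the other WT sham libraries, and 102, 78.0, 68.9, 112 and 85.3 in WT den. Opg-/- libraries gave 290, 499, 384, 401 and 361 in sham and 67.1, 78.4, 91.5, 56.0 and 62.2 in den. The highest den library, at 112, was below the lowest sham library, at 290. The log2 fold change was -2.41 (SE 0.187, adjusted p = 8.63e-11) in WT and -2.43 (SE 0.177, adjusted p = 2.15e-11) in Opg-/- mice. Gadd45g, the remaining gene of the family, which belongs to the list of cell cycle inhibitors, fell as well. In WT its mean was 6367 ± 1265 (sham) and 253 ± 51.3 (den), and in Opg-/- mice 5929 ± 521 and 178 ± 38.5. Its log2 fold change was -4.65 (SE 0.157, adjusted p = 7.59e-15) in WT and -5.07 (SE 0.148, adjusted p = 6.33e-16) in Opg-/- mice.

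The exchange within the family was seen in every library. The Gadd45a value divided by the Gadd45b value of the same library was 1.62 ± 0.558 in WT sham and 270 ± 42.7 in WT den. It was 2.30 ± 0.847 in Opg-/- sham and 316 ± 69.9 in Opg-/- den. No sham library exceeded 3.46 and no den library was under 202. The stretches before the start of these paralogs, Gadd45a on the minus strand at chr6:67037408-67037657 and Gadd45b on the plus strand at chr10:80929841-80930090 (GRCm38.p6), are given to compare them, with capitals as above.
Gadd45a: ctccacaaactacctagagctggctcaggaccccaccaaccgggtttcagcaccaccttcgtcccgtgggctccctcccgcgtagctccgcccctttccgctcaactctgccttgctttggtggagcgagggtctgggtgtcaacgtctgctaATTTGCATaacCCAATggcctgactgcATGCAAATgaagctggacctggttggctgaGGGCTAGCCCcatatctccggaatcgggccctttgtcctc
Gadd45b: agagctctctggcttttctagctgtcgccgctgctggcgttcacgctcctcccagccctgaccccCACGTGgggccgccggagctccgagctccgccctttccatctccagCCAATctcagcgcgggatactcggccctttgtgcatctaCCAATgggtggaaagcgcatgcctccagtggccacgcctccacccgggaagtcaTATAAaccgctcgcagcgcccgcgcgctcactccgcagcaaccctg
Of the 9 genes, only Gadd45a held ATGCAAAT, at -97 and -70, a motif present in 1.74% of all windows. Gadd45b held TATAA at -46, which 24.9% of all windows hold, and CACGTG at -185, which 7.15% hold. Both genes held CCAAT, as did 37.4% of all windows, and the p53 decamer matched in Gadd45a, from -40 to -31, and not in Gadd45b.

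**Figure D2:**
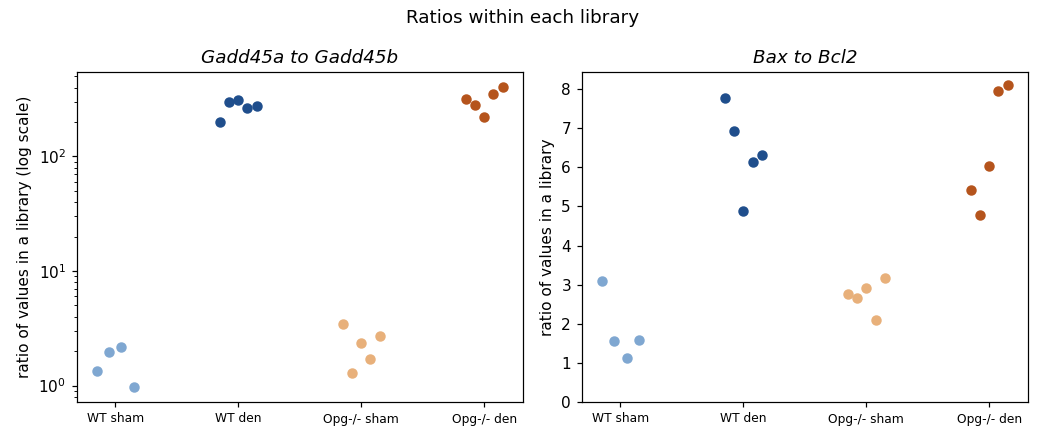
Ratio of 2 values within each library (y axis; a log scale for Gadd45a to Gadd45b, a linear scale from 0 for Bax to Bcl2) in the 4 groups (x axis), 1 point per library with WT sham 1 and 2 averaged. The Gadd45a to Gadd45b ratio lies between 0.975 and 3.46 in sham and between 202 and 405 in den, and the Bax to Bcl2 ratio between 1.12 and 3.17 in sham and between 4.79 and 8.10 in den.

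Bbc3 and Bax, which promote apoptosis at the mitochondrion, both rose. Bbc3 (ENSMUSG00000002083, plus strand of chromosome 7, 16308393 to 16318205) encodes PUMA, a BH3-only protein. It was low in sham, with 40.9 and 37.3 in the near-identical pair, 31.8, 43.0 and 38.6 in the other WT sham libraries, and 19.4, 41.5, 40.7, 62.6 and 27.5 in Opg-/- sham. In den it was 299, 338, 244, 336 and 229 in WT and 291, 280, 313, 270 and 323 in Opg-/- mice. Every den library was above every sham library, and the Opg-/- sham libraries varied the most among themselves, with a coefficient of variation of 42.9%. The log2 fold change was 2.88 (SE 0.213, adjusted p = 1.33e-11) in WT and 3.02 (SE 0.201, adjusted p = 1.36e-12) in Opg-/- mice.

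Bax (ENSMUSG00000003873, minus strand of chromosome 7, 45461697 to 45466898), the pore-forming effector, rose to a smaller degree. It ranged from 254 to 295 in WT sham and from 539 to 820 in WT den. Opg-/- libraries ranged from 266 to 300 in sham and from 578 to 737 in den. The mean was 2.24 times the sham mean in WT and 2.23 times in Opg-/- mice, and the log2 fold change was 1.15 in both (SE 0.0988, adjusted p = 5.81e-11, and SE 0.0932, adjusted p = 1.34e-11).

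Bcl2 (ENSMUSG00000057329, minus strand of chromosome 1, 106538178 to 106714274), which restrains BAX, was the one gene of the 9 whose sham and den libraries overlapped. Its values were 77.1 and 87.7 in the near-identical pair, 178, 264 and 179 in the other WT sham libraries, and 73.0, 84.1, 121, 133 and 85.3 in WT den. In Opg-/- mice they were 105, 113, 102, 126 and 93.1 in sham and 109, 121, 109, 83.1 and 91.0 in den. The near-identical pair lay within the range of WT den, and the other 3 WT sham libraries were above every library of the other groups. The log2 fold change was -0.74 (SE 0.234, adjusted p = 0.0103) in WT and -0.08 (SE 0.220, adjusted p = 0.785) in Opg-/- mice. The call in WT rested on how these libraries were treated. It was lost when the pair was kept as 2 libraries (-0.55, adjusted p = 0.0752), when WT sham 4 was left out (-0.51, adjusted p = 0.0573) and when library totals were made equal (-0.44, adjusted p = 0.148). The exons share 558 bases with D630008O14Rik on the opposite strand, whose own highest value was 3.15. With both libraries of the pair left out, an alternative chosen after seeing the data, the log2 fold change was -1.06 and the call was kept.

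The balance of Bax to Bcl2 shifted in both genotypes. Their ratio within a library was 1.83 ± 0.861 (sham) and 6.41 ± 1.06 (den) in WT and 2.72 ± 0.392 and 6.46 ± 1.50 in Opg-/- mice. Values were not divided by length (1576 exon bases for Bax, 9157 for Bcl2), so the ratio describes shifts between groups and not relative transcript numbers. The highest ratio in sham was 3.17 and the lowest in den 4.79, so the groups did not overlap. In Opg-/- mice Bax passed the test and Bcl2 did not.

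**Figure D3:**
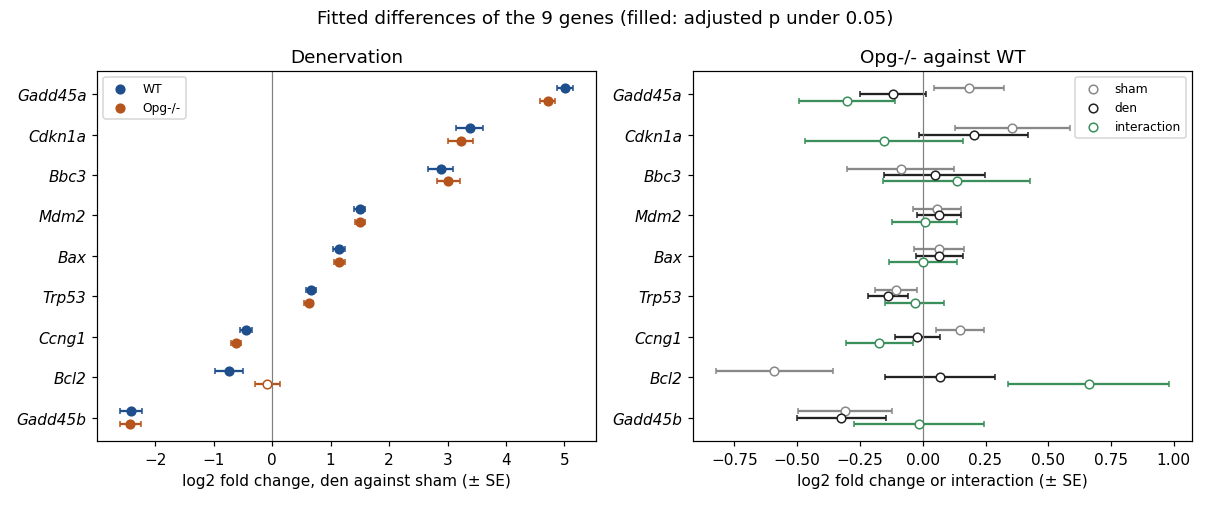
Left, log2 fold change of den against sham (x axis, bars are ± SE) of the 9 genes (y axis) in WT and Opg-/- mice; right, log2 fold change of Opg-/- against WT in sham and in den, and the interaction. Filled points have an adjusted p under 0.05: all points on the left but Bcl2 in Opg-/- mice, and none on the right.

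Whether loss of Opg changed these genes was asked in each limb and by the interaction of genotype and denervation. In sham, 0 of the 9 genes were called by limma, against 0.106% of all genes, and 1 gene (Bcl2) had an unadjusted p under 0.05. In den, 0 of 9 were called, against 0.0613% of all genes, and 0 had an unadjusted p under 0.05. For the interaction, 0 of 9 were called, against 0.00557% of all genes, and 0 had an unadjusted p under 0.05. In none of the 9 genes were the genotypes apart in sham or in den, where 3.01% and 1.47% of all genes were.

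For every gene but Bcl2, the genotype differences were smaller in size than the log2 fold change of den against sham in either genotype. In sham they ran from a log2 fold change of -0.59 (Bcl2) to 0.36 (Cdkn1a, SE 0.230, adjusted p = 0.569), and in den from -0.32 (Gadd45b, SE 0.177, adjusted p = 0.772) to 0.20 (Cdkn1a, SE 0.217, adjusted p = 0.936). The mean of Bcl2 was 176 ± 74.3 in WT sham and 108 ± 12.5 in Opg-/- sham (SE 0.234, adjusted p = 0.333 in limma). Its interaction was 0.66 (SE 0.321, adjusted p = 0.711 in limma). With both libraries of the near-identical pair left out, the log2 fold change of Bcl2 between the sham groups was -0.91 (adjusted p = 0.0253 in limma), so this call too turned on those libraries. A p above the threshold does not show that the genotypes were alike. For Mdm2 and Bax the interaction was 0.0077 (SE 0.129) and 0.0019 (SE 0.136), and for Gadd45a it was -0.30 (SE 0.192).

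Other members of the BCL2 family, 15 besides Bax, Bbc3 and Bcl2, moved in both directions. In WT, 5 rose and 4 fell, and in Opg-/- mice 5 rose and 3 fell, which is close to the 52.5% and 54.9% of all genes called, and their median log2 fold changes were 0.0862 (WT) and 0.113 (Opg-/-). Bid, a BH3-only protein that caspase-8 cleaves, had the largest rise of them, from 9.73 ± 2.46 to 184 ± 53.7 in WT and from 11.4 ± 4.46 to 177 ± 33.9 in Opg-/- mice. Its log2 fold change was 4.09 (SE 0.284, adjusted p = 1.12e-12) and 3.94 (SE 0.268, adjusted p = 5.62e-13). Bak1, the effector that resembles Bax, rose by 1.12 on the log2 scale in WT (adjusted p = 5.82e-10) and by 0.93 in Opg-/- mice (adjusted p = 6.45e-09). Bnip3 and Bnip3l, which act in mitophagy, rose less (0.47 and 0.38 in WT, 0.43 and 0.31 in Opg-/- mice).

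Among the members that protect cells, Mcl1 fell, from 4650 ± 161 to 2935 ± 311 in WT, with log2 fold changes of -0.67 (adjusted p = 5.17e-08) in WT and -0.79 (adjusted p = 5.69e-10) in Opg-/- mice. Bcl2l1, which encodes BCL-XL, was at 0.08 and 0.05 and Bcl2l2 at 0.09 and 0.07, and neither passed the test. On the other side, the BH3-only gene Bcl2l11, which encodes BIM, fell (-0.59 and -0.49), as did Bok (-1.29 and -1.10). Some calls fell on one side of the threshold in a single genotype: Bad was called in WT (0.37, adjusted p = 0.0109) and not in Opg-/- mice (0.11, adjusted p = 0.426). Bmf was called in Opg-/- mice (0.87, adjusted p = 3.01e-05) and not in WT (0.39, adjusted p = 0.0529). The interaction was not called for either (adjusted p = 0.748 and 0.711 in limma). Bik (0.82 and 0.49), Pmaip1 (-0.77 and 0.75) and Bcl2l10 (-0.43 and 0.05) were not called in either genotype and were low, with a mean log2 value under 4. Hrk, also low with a mean log2 value of 3.18, was called in WT alone (-1.22, adjusted p = 0.0306 in limma), with an interaction at an adjusted p of 0.934.

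**Figure D4:**
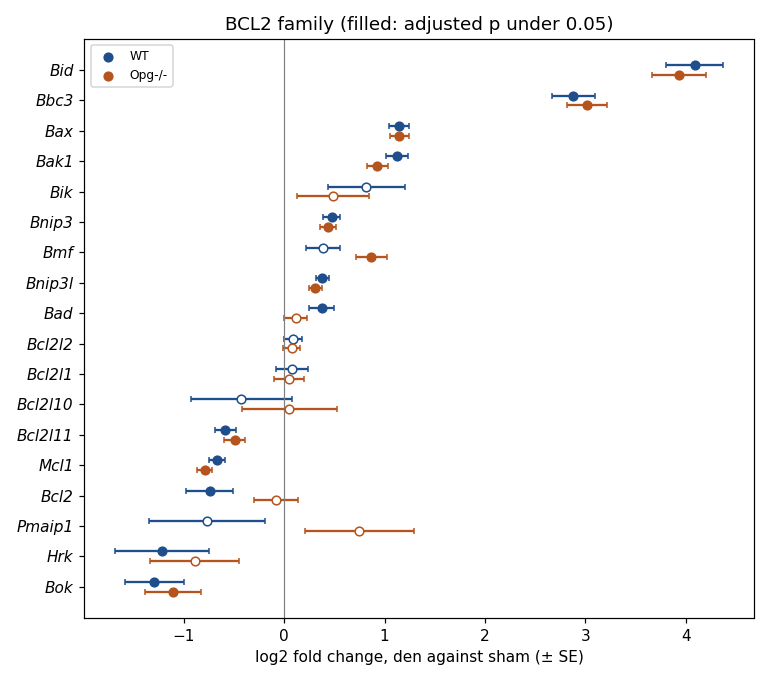
Log2 fold change of den against sham (x axis, bars are ± SE) of 18 genes of the BCL2 family (y axis) in WT and Opg-/- mice, with filled points at an adjusted p under 0.05. Bid (4.09 and 3.94), Bbc3 and Bax lie to the right, and Mcl1 (-0.67 and -0.79) and Bok (-1.29 and -1.10) to the left, in both genotypes.

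Downstream of the mitochondrion, the 20 caspase and apoptosome genes gave 4 rises and 7 falls in each genotype, again near the 52.5% (WT) and 54.9% (Opg-/-) called over all genes, and their median log2 fold changes were -0.148 (WT) and -0.0622 (Opg-/-). Birc3, which encodes the inhibitor cIAP2, rose (1.32 and 1.37), and Endog, a mitochondrial nuclease, fell (-1.29 and -1.48). Of the 10 necroptosis and pyroptosis genes, 1 rose and 1 fell in each genotype, beside 52.5% (WT) and 54.9% (Opg-/-) of all genes called. Many of the 10 had a mean log2 value under 4, and the gene that fell was not the same in both genotypes. Casp4, the caspase-11 gene, was the one that rose in both (2.47, adjusted p = 9.31e-06, and 2.84, adjusted p = 5.46e-07).

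Upstream, 4 of the 16 p53 regulators rose and 5 fell in WT, and 5 rose and 4 fell in Opg-/- mice, beside 52.5% and 54.9% of all genes called. Trp63, the p53 relative, moved more than Trp53 itself, from 210 ± 33.6 to 1166 ± 113 in WT and from 198 ± 38.9 to 1211 ± 101 in Opg-/- mice, with log2 fold changes of 2.47 (adjusted p = 4.93e-16) and 2.62 (adjusted p = 3.22e-17). Trp53bp1, which binds damaged chromatin, and the kinase gene Atr rose by 0.98 and 0.82 in WT and by 1.02 and 0.92 in Opg-/- mice. Of 26 other p53 targets, 11 rose and 5 fell in WT and 12 rose and 6 fell in Opg-/- mice (16 and 18 of 26 called, beside the same shares of all genes), and their median log2 fold changes were 0.209 (WT) and 0.286 (Opg-/-). Eda2r, the receptor of ectodysplasin A2, rose the most of those named, from 606 ± 58.7 to 7313 ± 400 in WT, with log2 fold changes of 3.60 (adjusted p = 8.92e-10) in WT and 4.07 (adjusted p = 6.72e-11) in Opg-/- mice. Tigar, which lowers fructose-2,6-bisphosphate, fell (-1.83 and -1.90), as did Polk, a DNA polymerase of translesion synthesis (-1.29 and -1.12). No gene of these lists was called between the genotypes in either limb.

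Cell cycle genes were set beside Cdkn1a. Of 10 cell cycle inhibitors, 2 rose and 5 fell in WT and 3 rose and 6 fell in Opg-/- mice (7 and 9 of 10 called, where 52.5% and 54.9% of all genes were). Rb1, the retinoblastoma gene, rose from 312 ± 31.8 to 3534 ± 204 in WT and from 335 ± 16.8 to 3624 ± 280 in Opg-/- mice, with log2 fold changes of 3.50 (adjusted p = 1.95e-24) and 3.43 (adjusted p = 2.91e-25). Cdkn1c, a relative of Cdkn1a, fell in WT (-0.72, adjusted p = 0.0146) and was not called in Opg-/- mice (-0.45, adjusted p = 0.0893). Of 21 cell cycle genes tested, 5 rose and 1 fell in WT, and 2 rose and 2 fell in Opg-/- mice. Thus 6 and 4 of 21 were called, a lower share than among all genes. Many of the 21 had a mean log2 value under 4, and the part that low values had in this share was not tested. Rrm2, a subunit of ribonucleotide reductase, rose (3.54 and 3.67), Mcm6 of the replicative helicase rose (1.06 and 0.87), and Aurka, a mitotic kinase, fell (-2.22 and -1.89).

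Several genes had a pattern close to that of a member over the 19 libraries, given here by Pearson's r of log2(value + 1) as a description, since all libraries share the difference between den and sham. Gadd45a was most like Mknk2 (r = 0.996), Cpne2 (0.996) and Myl12a (0.996). Gadd45b was most like Nr4a1 (0.981), an immediate early gene whose mean went from 9667 to 584 in WT, and Fhl3 (0.979), followed by Gadd45g (0.976). Mdm2 was most like Aebp2 (0.993), Cdkn1a like Ttll11 (0.991), Bax like Usp5 (0.989), Bbc3 like Galns (0.984), Trp53 like Usp11 (0.965) and Ccng1 like Capza2 (0.961). Bcl2 had no gene as close, the nearest being Zfp112 (0.81). No member was among the 3 genes nearest to another.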

How the data were processed

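RNA of gastrocnemius muscle was sequenced from non-stranded libraries. The authors aligned reads with STAR (mm10) and quantified genes with RSEM; versions are not given in the sources used here. The deposited signal is an expected count over a library's size factor, a reading checked on the values. In units of 1 read, 87.1% to 88.1% of values were whole numbers (within 0.001), too few for a count test, and libraries held 15186247 to 20102295 reads.

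Columns were assigned by genotype, limb (left sham, right den) and replicate number. Log2(value + 1) was fitted with limma 3.58.1 (R 4.3.3, trend and robust options, two-sided) in 1 fit over the 4 groups, without a block for the replicate number. Genes needed a value of 1 or more in 4 or more libraries, and Benjamini-Hochberg adjustment ran over all 17948 of them. Genes called had an adjusted p under 0.05. The script was tested on simulated data. That the libraries of a group came from separate mice is not stated, so p measures the spread between libraries, which may be technical.

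The members and gene lists were chosen with earlier results of these data known. All 9 members are named, and from each list the 3 called genes with the largest change in WT and a mean log2 value of at least 4; all BCL2 family genes could be named, and a gene that this rule names is not reported here; likeness takes the 3 highest Pearson's r. Alternatives were no filter or a stricter one (10), a pseudocount of 0.1, the compared groups alone, the near-identical libraries kept separate or left out, equal library totals, limma voom, a replicate block and each library left out. Promoter sequences came from RefSeq (GRCm38.p6), where 9 of 9 members matched, and gene positions and exon lengths from GENCODE (mm10). Tables and figures used Python 3.11.15 with pandas 2.3.3 and matplotlib 3.10.9.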

Additional observations from a re-analysis of the deposited data

Results flagged for a closer look

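Each gene was examined in each group, 36 sets of values, for 1 library that stood far from the rest. There were 4, and chance gives about 1 in 20 sets. Bax was at 820 in WT den 4, where the other WT den libraries lay between 539 and 592. Gadd45b was at 735 in WT sham 5, where the others lay between 379 and 438 with the near-identical pair averaged. Ccng1 was at 14953 in Opg-/- sham 1, where the others lay between 10302 and 11551, and at 8473 in Opg-/- den 3, where the others lay between 7220 and 7566. Without these libraries the calls of Bax, Gadd45b and Ccng1 between den and sham were kept.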

How the results depend on the processing

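In Opg-/- mice 8 of 9 genes were called between den and sham under every alternative run, and in WT 7 to 9 were. Ccng1 in WT lost its call with equal totals (-0.14, adjusted p = 0.117) and with limma voom on values in units of 1 read (-0.14, adjusted p = 0.112). Bcl2 in WT lost it with the compared groups alone (-0.74, adjusted p = 0.0762), the near-identical libraries separate (-0.55, adjusted p = 0.0752), equal totals (-0.44, adjusted p = 0.148), voom (-0.40, adjusted p = 0.211) and without WT sham 4 (-0.51, adjusted p = 0.0573; the range with 1 library left out was -0.86 to -0.51). The cause was not tested. Between the sham groups the count went from 0 to 1 (Bcl2, -0.91, adjusted p = 0.0253) with both near-identical libraries left out.

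The block for the replicate number kept all den against sham calls, with Bcl2 in WT at -0.62 (adjusted p = 0.0027). The deviations of libraries of the same number correlated at r of -0.038 to 0.057 in WT and 0.012 to 0.045 in Opg-/- mice. WT numbers 1 and 2 shared the averaged sham values, so they could not both correlate best with their own number. In WT 2 of 5 and in Opg-/- mice 4 of 5 correlated best with their own number. These values do not settle whether a number marks a mouse, and the labels do not state it. The main fit therefore did not pair the limbs.

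Signs turned only for differences that were never called. With equal totals and with voom, these were Bcl2 in Opg-/- den against sham (0.37 and 0.38), Mdm2 (-0.082 and -0.081) and Bax (-0.074 and -0.069) between sham groups, and the interactions of Trp53 (0.12 and 0.12) and Gadd45b (0.13 and 0.15). The interaction of Mdm2 was -0.0041 with the block and -0.025 without the near-identical pair, that of Gadd45b 0.022 without the pair, and that of Bax -0.022 with the pair separate and -0.022 with the block. With 1 library left out, Bbc3 ran from -0.29 to 0.12 between sham groups and from -0.032 to 0.11 between den groups, where Ccng1 ran from -0.061 to 0.0030 and Bcl2 from -0.031 to 0.18. The interactions ran from -0.078 to 0.0066 (Trp53), -0.045 to 0.095 (Mdm2), -0.23 to 0.091 (Gadd45b), -0.075 to 0.34 (Bbc3) and -0.048 to 0.11 (Bax). A count test on reads was not run, since too few values were whole. Bcl2 and Bbc3 in sham rest on the fewest reads of the 9 genes.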
